A study of Mus musculus with 14 samples.

Results

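Of the 387570 genomic regions on chromosomes 1 to 19 at which the authors listed a difference in G9a binding, 166098 (42.9%) also overlapped, by 1 bp or more, a region listed for a difference in H3K27me3 and did not overlap any region listed for H3K9me2. These G9a regions shared with H3K27me3 only are described here. The data come from chromatin immunoprecipitation and sequencing of cardiomyocyte-enriched cells of C57BL/6J mice, collected 1 week after transverse aortic constriction (TAC), a surgical narrowing of the aorta that loads the left ventricle with pressure, and after a sham operation that the labels describe as no treatment. Each of the antibodies against G9a, H3K27me3 and H3K9me2 was used on 2 biological replicates of TAC and 2 of sham, and each condition had 1 input library, which was not used here. The labels give neither sex nor age, nor whether animals were pooled, and an enriched population still holds other heart cells.

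G9a, encoded by Ehmt2, is a histone methyltransferase that places methyl groups on lysine 9 of histone H3, and H3K9me2 is its best known product in euchromatin. H3K27me3 is the mark of Polycomb repressive complex 2, whose catalytic subunits are Ezh2 and Ezh1. It lies in broad domains over developmental regulators and over genes of other lineages that a differentiated cell keeps silent. The regions described here are thus places listed for a difference in G9a and in the Polycomb mark, and not for one in H3K9me2. A place that was not listed may still carry the mark without a listed difference. The class names both marks, H3K9me2 only and neither mark, used below, likewise refer to the lists and not to the presence of a mark.

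The authors' deposited tables give 4 whole numbers for each region, as a first pair and a second pair of libraries, with a −log10 p. They do not say which pair is TAC and which is sham, so every direction below is given by pair, and all differences are the second pair over the first pair as log2 of the pair means plus 1. No label or file states whether the authors scaled the numbers or corrected them for input, so they are called deposited values and not read counts. Each region had been listed for a difference between the pairs (the largest deposited p was 0.00998 for G9a and 0.01 for H3K27me3). The members were therefore chosen by the measured differences of G9a, H3K27me3 and H3K9me2 between the pairs, through presence in or absence from those lists. The directions and sizes below describe the regions and were not tested. A pair of libraries is called apart where both deposited values of the higher pair exceed both of the other pair.

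Promoters that lay wholly inside a member region and inside its H3K27me3 region show the kinds of sequence involved. They are RefSeq sequences of GRCm38.p6, from 250 bases before to 50 after the gene start, printed 5′ to 3′ on the strand of the gene, with every CG dinucleotide in capitals. C1qc encodes a chain of complement C1q and its promoter, at chr4:136892865-136893164 on the minus strand, is poor in CG. Neurod2, a bHLH factor of neuronal differentiation, has its promoter at chr11:98329596-98329895 on the minus strand. Foxl2, a forkhead factor of the ovary, has its promoter at chr9:98955357-98955656 on the plus strand. All 3 lay in members that were higher in the second pair for both antibodies.
C1qc: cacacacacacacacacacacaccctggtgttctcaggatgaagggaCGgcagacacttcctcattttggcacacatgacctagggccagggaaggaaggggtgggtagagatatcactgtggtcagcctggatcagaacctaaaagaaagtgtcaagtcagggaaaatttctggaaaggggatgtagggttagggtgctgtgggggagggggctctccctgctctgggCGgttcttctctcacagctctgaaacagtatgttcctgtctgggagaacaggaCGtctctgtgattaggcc
Neurod2: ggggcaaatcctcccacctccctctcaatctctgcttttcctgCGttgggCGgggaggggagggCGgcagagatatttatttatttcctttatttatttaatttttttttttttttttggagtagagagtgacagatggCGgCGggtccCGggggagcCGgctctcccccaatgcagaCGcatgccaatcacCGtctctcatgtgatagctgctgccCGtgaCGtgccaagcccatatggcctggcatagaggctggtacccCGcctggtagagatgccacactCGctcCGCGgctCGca
Foxl2: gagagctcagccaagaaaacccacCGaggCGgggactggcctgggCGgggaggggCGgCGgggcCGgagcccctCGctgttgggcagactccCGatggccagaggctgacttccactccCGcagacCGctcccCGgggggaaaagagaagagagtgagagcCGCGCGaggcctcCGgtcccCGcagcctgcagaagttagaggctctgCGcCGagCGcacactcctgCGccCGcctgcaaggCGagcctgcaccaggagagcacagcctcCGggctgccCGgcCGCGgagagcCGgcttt

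The promoters of Dsel, a gene related to dermatan sulfate epimerase, at chr1:111864869-111865168 on the minus strand, and of Serpinb2, a serine protease inhibitor, at chr1:107511173-107511472 on the plus strand, lay in members higher in the first pair for both antibodies.
Dsel: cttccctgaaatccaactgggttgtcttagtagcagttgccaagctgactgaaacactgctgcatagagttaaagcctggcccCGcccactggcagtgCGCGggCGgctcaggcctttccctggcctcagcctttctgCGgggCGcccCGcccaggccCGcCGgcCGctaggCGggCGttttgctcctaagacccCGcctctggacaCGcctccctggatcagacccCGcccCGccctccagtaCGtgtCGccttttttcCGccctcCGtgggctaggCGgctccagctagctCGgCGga
Serpinb2: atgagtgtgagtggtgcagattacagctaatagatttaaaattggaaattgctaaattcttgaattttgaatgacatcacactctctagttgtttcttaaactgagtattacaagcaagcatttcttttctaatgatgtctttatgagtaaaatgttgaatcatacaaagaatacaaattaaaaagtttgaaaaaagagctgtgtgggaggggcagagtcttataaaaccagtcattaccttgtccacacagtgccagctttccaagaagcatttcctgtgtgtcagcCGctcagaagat

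The number of CG in the 300 bases was 3 for C1qc, 16 for Neurod2, 27 for Foxl2, 23 for Dsel and 1 for Serpinb2. Of all 20084 promoter entries used, 95.6% held at least 1 CG, and 21.5% held as many as Foxl2. The C1qc member spanned 11950 bp (chr4:136887601-136899550), and the authors' deposited G9a values over it were 4473 and 3101 in the second pair, against 1326 and 1453 in the first pair. The Neurod2 member spanned 2150 bp and had 776 and 487 in the second pair, against 165 and 212 in the first pair. At both genes the pairs were apart. The Foxl2 member, of 3900 bp, had 91 and 1518 in the second pair, against 160 and 474 in the first pair, so that its pairs overlapped and the libraries of a pair differed more from each other than the pair means did. The Dsel member had 21 and 98 in the second pair, against 284 and 376 in the first pair, and the Serpinb2 member had 0 and 31 in the second pair, against 153 and 153 in the first pair. Both were apart for G9a in the direction of the first pair, at a promoter rich in CG and at one that is nearly without. H3K27me3 was apart at Dsel. At Serpinb2 it was not, with 160 and 0 in the second pair, against 171 and 130 in the first pair.

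The members covered 141 Mb. Their median width was 700 bp, with quartiles at 500 and 1000 bp and the widest at 13600 bp, against 650 bp over all listed G9a regions. Members of 2 kb and more numbered 7795, or 4.69% of members. Such widths were more frequent among regions with both marks, at 3303 or 6.63%. They numbered 139 (0.515%) among regions shared with H3K9me2 only and 459 (0.317%) among regions with neither mark. The median of the mean deposited value per kb was 136 in members, 138 in the 49799 regions with both marks, 129 in the 26993 regions with H3K9me2 only and 126 in the 144680 regions with neither mark. A member was usually embedded in the Polycomb mark: the median share of a member covered by H3K27me3 was 94.0%, 79322 members (47.8%) lay wholly inside, and 142356 overlapped a single H3K27me3 region. The next listed H3K9me2 region was a median of 3.65 kb away, and 4.7 kb away from regions with neither mark.

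Just inside the rule, 3591 members shared only 50 bp with H3K27me3, the step of the authors' grid. Of these 42.7% were higher in the second pair and the median width was 550 bp. Just outside it, 6646 G9a regions with neither mark had an H3K27me3 region adjoining or 50 bp away, and 44.3% of these were higher in the second pair, with the same median width. The regions at the edge of the rule thus had like values on either side of it.

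Of the members, 91724 were higher in the second pair and 74374 in the first pair, a share of 55.2% in the second pair, whereas 44.6% of all listed G9a regions were higher in the second pair. The share was 51.0% for regions with both marks, 34.5% for regions with H3K9me2 only and 32.0% for regions with neither mark. It varied over chromosomes from 43.4% on chromosome 3 to 61.8% on chromosome 11, and on 19 of 19 chromosomes it was higher in members than in each other class. In bulk chromatin, a different share of a cell type and a different amount of G9a per cell cannot be told apart. With each G9a library left out in turn, the share in members ran from 51.1% to 57.8%, that in regions with both marks from 47.1% to 53.6%, that in regions with H3K9me2 only from 30.5% to 39.5% and that in regions with neither mark from 27.8% to 37.9%. The lowest value of each came without library 2 of the second pair, when the regions with both marks were more often higher in the first pair.

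**Figure D1:**
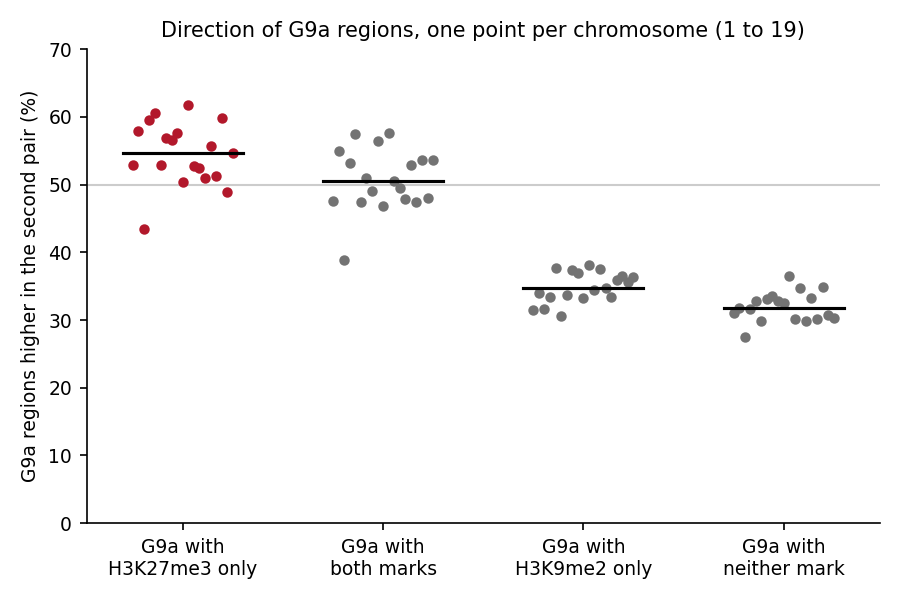
Share of G9a regions higher in the second pair (%, y axis) for the 4 overlap classes (x axis), with 1 point for each of chromosomes 1 to 19 and a line at the median over chromosomes. The regions shared with H3K27me3 only (red) have a median of 54.6%, and their lowest chromosome is at 43.4%.

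The pairs were apart in 104260 members (62.8%), against 61.3% of all listed G9a regions, so the share of members apart was near that background. Of all listed G9a regions, 28.1% were apart and higher in the second pair and 33.2% were apart and higher in the first. By direction, 65.2% of the members higher in the second pair were apart, and 59.8% of those higher in the first pair. The median log2 difference was 1.01 in the members higher in the second pair and −1.01 in those higher in the first pair, and 51.5% of members differed 2-fold or more, against 55.2% of all listed G9a regions. The smallest difference of any member was 0.27 on the log2 scale in absolute size.

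Summed over members, the deposited values came to 24126353 and 24587511 in the second pair, against 16289762 and 20580868 in the first pair. This was 57.7% and 51.0% of everything listed for G9a in the libraries of the second pair, against 44.3% and 46.2% in those of the first pair. Library 1 of the second pair, named here by its position in the deposited field, stood apart from the others. It had a value of 0 in 4.77% of members, against 0.380% in library 2 of the second pair and 1.36% and 0.153% in the libraries of the first pair. Its median over members was 77, beside 106 in library 2 of the second pair and 79 and 101 in the first pair.

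Each member was set against the H3K27me3 region that shared the most bases with it. Both antibodies were higher in the second pair at 68092 members (41.0%) and both were higher in the first pair at 38140 (23.0%). G9a was higher in the second pair and H3K27me3 in the first at 23632 members (14.2%), and the reverse held at 36234 (21.8%). The antibodies thus pointed to the same pair at 64.0% of members, and at 64.1% of the regions with both marks. Among the 79990 members whose pairs were apart for both antibodies, the share pointing to the same pair was 68.1%. Of all listed H3K27me3 regions, 69.2% were apart, which is another measure and no base for the 68.1%. Of the members with G9a higher in the second pair, 74.2% had H3K27me3 higher there too. Of those with G9a higher in the first pair, 48.7% had H3K27me3 higher in the second pair. Over all members, 62.8% had H3K27me3 higher in the second pair, while 42.8% of all listed H3K27me3 regions were higher there.

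**Figure D2:**
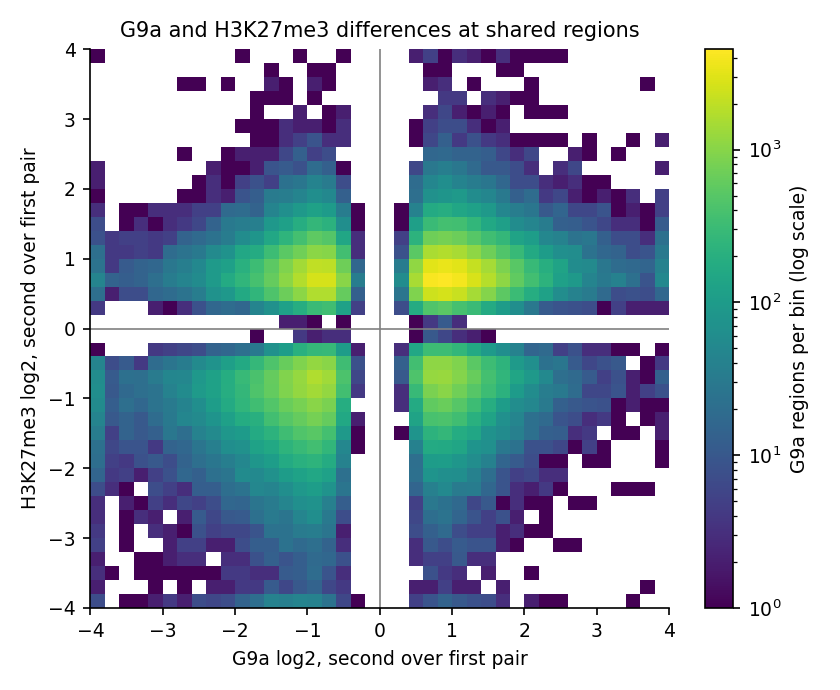
Number of member regions (colour, log scale) by G9a log2 difference (x axis) and H3K27me3 log2 difference (y axis), second over first pair, in bins of the log2 scale; values beyond 4 either way lie in the outermost bins. The gap along both axes comes from the listing of regions for a difference, and the fullest bins lie at the upper right, where 68092 members are higher in the second pair for both antibodies.

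Across the 166098 members the log2 differences of G9a and H3K27me3 had a Pearson correlation of 0.29 and a Spearman correlation of 0.26. These are a description: members within an H3K27me3 region share its value, and both measures rest on the same build, gene content and base composition. The 4 combinations differed in size. Members higher in the second pair for both antibodies were a median of 800 bp wide in H3K27me3 regions of 2150 bp, and those higher in the first pair for both were 600 bp wide in H3K27me3 regions of 850 bp. The median log2 difference was 1.03 for G9a and 0.79 for H3K27me3 in the combination higher in the second pair, and −1.09 and −0.94 in the combination higher in the first pair. Where G9a was higher in the first pair and H3K27me3 in the second, 57.5% of members were apart for G9a, the lowest share of the 4 combinations.

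The width of the H3K27me3 region sorted the members by direction. Where the H3K27me3 region was under 1 kb wide, 44.6% of 61493 members were higher in the second pair for G9a. The share was 53.2% of 49613 members for widths of 1 to 2 kb, 65.5% of 34894 for 2 to 5 kb, 74.0% of 13887 for 5 to 10 kb and 77.6% of 6211 for 10 kb and more. H3K27me3 itself was higher in the second pair at 40.6%, 56.6%, 89.4%, 99.9% and 100% of the members in the same order of widths. Wide H3K27me3 regions were thus almost always higher in the second pair, and the G9a regions inside them mostly were. Among members whose H3K27me3 region was higher in the second pair, the share with G9a higher there also grew with width, from 56.3% under 1 kb to 62.5%, 68.6%, 74.1% and 77.6%. Without library 2 of the second pair, which gave the lowest shares, the values were 41.2%, 49.4%, 60.5%, 67.9% and 70.5% over all members, and that for 1 to 2 kb then lay below 50%.

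**Figure D3:**
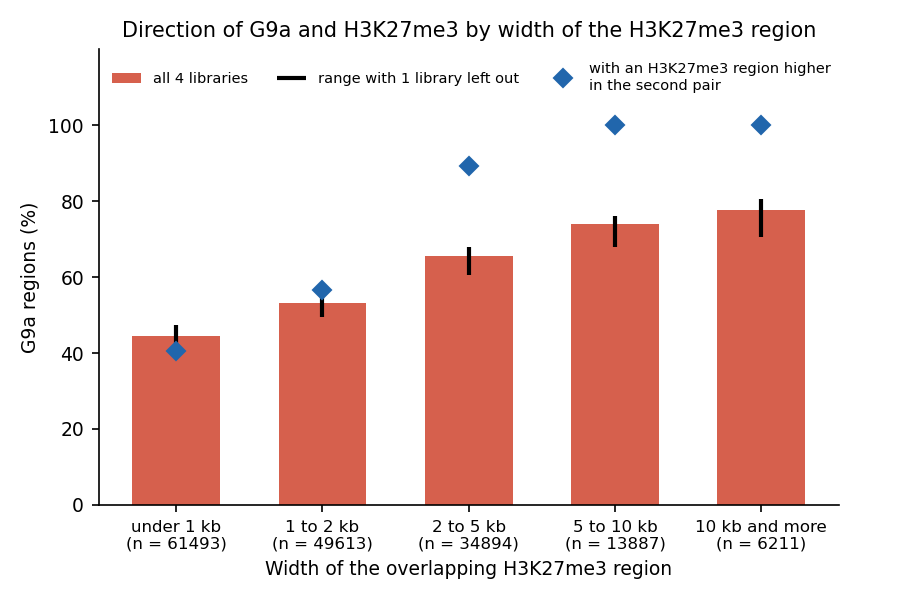
Share of member regions (%, y axis) by width of the overlapping H3K27me3 region (x axis, with the number of members): bars, members with G9a higher in the second pair; black lines, the range of that share when each of the 4 G9a libraries is left out in turn; diamonds, members whose H3K27me3 region is higher in the second pair. The bars grow from 44.6% under 1 kb to 77.6% at 10 kb and more.

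Wide H3K27me3 regions were also more often the seat of a member. Of the listed H3K27me3 regions under 1 kb, 16.9% served as the region set against a member, of those of 1 to 2 kb 30.6%, of those of 2 to 5 kb 58.4%, of those of 5 to 10 kb 91.3% and of those of 10 kb and more 98.7%. Per Mb of H3K27me3, members numbered 275, 259, 300, 354 and 344 in that order, so the density varied less than the share of regions occupied, which a longer region reaches more readily. In all, 134834 of 547402 H3K27me3 regions (24.6%) were set against a member. These had a median width of 1050 bp and were higher in the second pair in 56.8%, and the 351325 H3K27me3 regions without any G9a region had a median width of 700 bp and were higher in the second pair in 36.5%.

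Many H3K27me3 regions held several members, and those members often pointed to different pairs. H3K27me3 regions with 2 or more members numbered 20873, and in 9999 of them (47.9%) all members were higher in the same pair. Members that were alone in their H3K27me3 region were higher in the second pair in 49.7%, members of regions with 3 to 4 in 72.5%, and members of the 57 regions with 10 or more in 76.0%. In 56 of those 57 regions the members differed in direction.

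The fullest of these domains was the HoxA cluster, which encodes homeodomain factors that pattern the body axis. An H3K27me3 region of 53.7 kb there (chr6:52197251-52250950), from Hoxa3 to Hoxa11, held 24 members, of which 16 were higher in the second pair and 8 in the first. Its H3K27me3 values were 50778 and 42748 in the second pair, against 30387 and 31475 in the first pair, and these pairs were apart. The G9a values of its members summed to 2707 and 7358 in the second pair, against 2874 and 5257 in the first pair. G9a pairs were apart at only 2 of the 24 members, and in the sums library 1 of both pairs was below library 2 of both pairs. In the HoxB cluster, an H3K27me3 region of 43.9 kb held 18 members, 10 higher in the second pair and 8 in the first, with 4 apart.

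Other dense domains had members that were more often apart than those in the Hox domains, beside 62.8% apart over all members. The share varied among them: 6 of 15 members were apart at Tlx1, 11 of 18 in chr8:120874151-120913900 and 14 of 17 in chr4:125242651-125288450. At Pax5, the paired box factor of B cell commitment, 18 members lay in 33.9 kb of H3K27me3, 11 of them higher in the second pair, 7 in the first and 12 apart. Around Hmx1, a homeobox gene of sensory ganglia and craniofacial tissue, 18 members lay in 35.8 kb, 15 higher in the second pair and 15 apart, and their G9a sums were 7277 and 7392 in the second pair, against 2639 and 4880 in the first pair. At Efcab6, 16 members lay in 37.0 kb, 15 higher in the second pair and 12 apart. Around Hmx1 and at Efcab6, both libraries of the second pair were above both of the first in the summed G9a values, which was not so in the HoxA cluster, the HoxB cluster or at Pax5.

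The widest single member spanned 13600 bp (chr5:112592001-112605600) within an H3K27me3 region of 62300 bp, the widest in that table, with no protein-coding gene end within 2500 bp. The authors' deposited G9a values there were 6418 and 3441 in the second pair, against 1373 and 2686 in the first pair. A neighbour of 11950 bp (chr5:112447651-112459600), which overlaps Sez6l, a gene expressed in neurons, had 4164 and 3344 in the second pair, against 1382 and 1842 in the first pair. The third of the widest members is the one over C1qa and C1qc, described above.

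The members with the smallest deposited p among those higher in the second pair for both antibodies included genes known from liver, nerve, limb and macrophages. At Agxt, the liver enzyme that detoxifies glyoxylate, a member of 9400 bp (chr1:93133901-93143300) had G9a values of 4462 and 2191 in the second pair, against 1020 and 1187 in the first pair, a log2 difference of 1.59. At Lmx1b, a LIM homeobox factor of the dorsal limb and kidney, a member of 5100 bp had 2824 and 1092 in the second pair, against 492 and 410 in the first pair, a log2 difference of 2.12. At Grm4, a metabotropic glutamate receptor, a member of 11750 bp had 4492 and 2767 in the second pair, against 1171 and 1631 in the first pair. All 3 were apart, and H3K27me3 was higher in the second pair by 0.78, 0.74 and 0.60 on the log2 scale in the same order.

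The same group held Plch2, a phospholipase C, with 3323 and 1702 in the second pair, against 555 and 883 in the first pair. A member shared by Kctd17 and Tmprss6 (Tmprss6 is a liver protease that restrains hepcidin) had 3834 and 1698 in the second pair, against 908 and 845 in the first pair. At Cabp7 and Nf2, the gene of the tumour suppressor merlin, the values were 4580 and 2228 in the second pair, against 1274 and 1271 in the first pair. At Orm1 and Orm3, which encode acute-phase plasma proteins, they were 3194 and 1657 in the second pair, against 304 and 1102 in the first pair. In these members, with that over C1qa and C1qc 8 in all, library 1 of the second pair was the highest of the 4, and library 2 of the second pair also exceeded both libraries of the first pair.

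**Figure D4:**
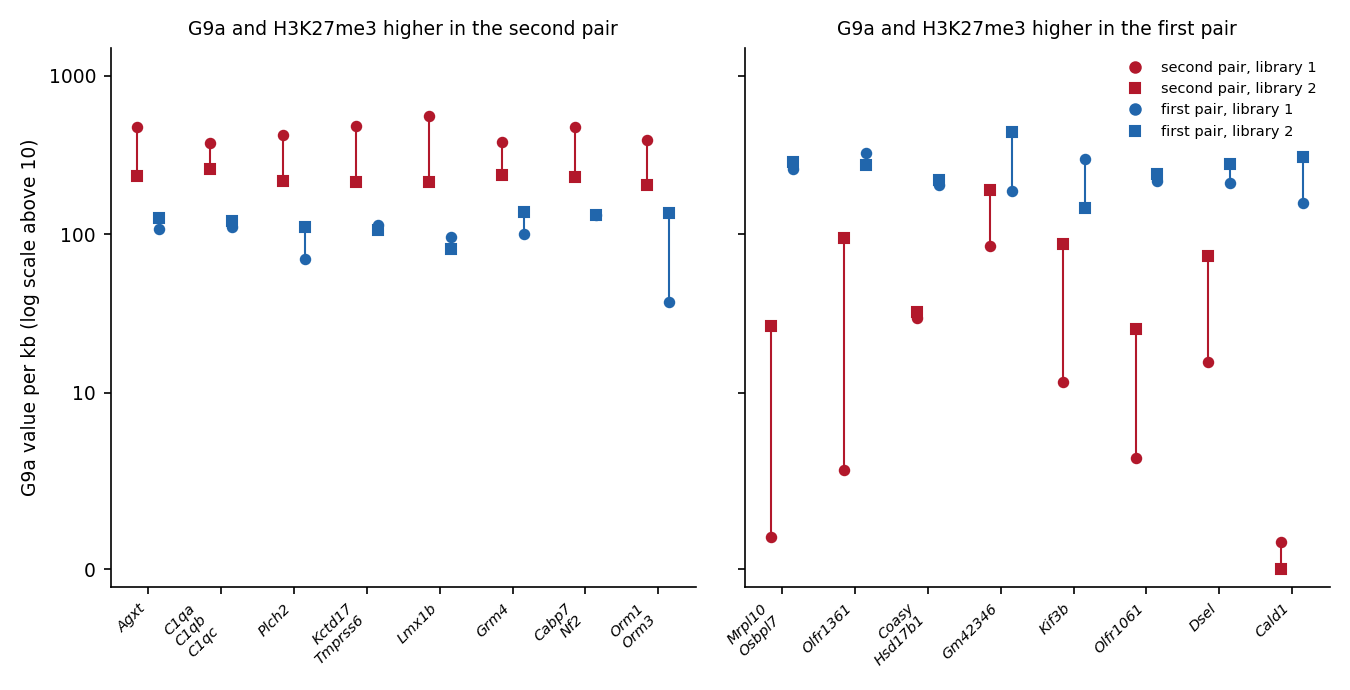
G9a value per kb (y axis, log scale above 10 and linear below) of the 8 members with the smallest deposited p among those higher in the second pair for both antibodies (left) and among those higher in the first pair for both (right), labelled by nearby genes; red, second pair; blue, first pair; circles, library 1; squares, library 2. On the left the second pair lies above the first at each gene, and on the right it lies below except at Gm42346, where the pairs overlap, with library 1 of the second pair under 10 per kb at 4 genes.

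The members higher in the first pair for both antibodies were narrower and had lower values. At Coasy, which encodes the last enzyme of coenzyme A synthesis, and Hsd17b1, which activates oestrogen, a member of 1450 bp had 43 and 47 in the second pair, against 297 and 321 in the first pair, a log2 difference of −2.75. At Dsel the log2 difference was −2.45. At Kif3b, a kinesin motor subunit needed for cilia, the values were 21 and 156 in the second pair, against 533 and 264 in the first pair. Near Osbpl7 and Mrpl10 they were 2 and 29 in the second pair, against 282 and 314 in the first pair. At Cald1, the actin-binding protein caldesmon of smooth muscle, they were 1 and 0 in the second pair, against 102 and 201 in the first pair. The olfactory receptor genes Olfr1361, with 7 and 119 in the second pair, against 406 and 340 in the first pair, and Olfr1061, with 6 and 24 in the second pair, against 206 and 229 in the first pair, belong here too. The eighth, at Gm42346, was not apart for G9a, with 253 and 574 in the second pair, against 562 and 1332 in the first pair. H3K27me3 was apart there and at Osbpl7 and Mrpl10, Kif3b, Olfr1061, Dsel and Cald1. It was not apart at Coasy and Hsd17b1, with 537 and 321 in the second pair, against 505 and 726 in the first pair. Nor was it apart at Olfr1361, with 388 and 163 in the second pair, against 381 and 498 in the first pair.

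Where the antibodies pointed to different pairs, G9a could still differ widely. At Trim29 a member had G9a values of 1842 and 988 in the second pair, against 276 and 492 in the first pair, and its H3K27me3 region had 508 and 331 in the second pair, against 718 and 294 in the first pair, so H3K27me3 was not apart. At Adad2, a testis gene, G9a values were 2125 and 971 in the second pair, against 520 and 395 in the first pair, with a log2 difference of −0.88 for H3K27me3. Exoc3l2 and Mapk13, a p38 kinase, were of the same kind, with G9a log2 differences of 1.58 and 1.21. In the reverse combination, a member at Sez6l2 had G9a values of 13 and 14 in the second pair, against 204 and 234 in the first pair, and H3K27me3 values of 119 and 76 in the second pair, against 12 and 0 in the first pair. The members near Cops4, a subunit of the COP9 signalosome, Ndufaf5, an assembly factor of respiratory complex I, and Impdh1, an enzyme of guanine nucleotide synthesis, had G9a log2 differences of −2.24, −3.23 and −1.75.

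Most members lay away from genes. Within 2500 bp of either end of a protein-coding gene were 15401 members (9.27%), in the rest of gene bodies 51705 (31.1%) and outside genes 98992 (59.6%), against 8.09%, 33.2% and 58.7% of all listed G9a regions. The share near a gene end ran from 6.21% to 12.7% over chromosomes, and on 18 of 19 it was above that of all listed G9a regions. Near gene ends 63.0% of members were higher in the second pair, in gene bodies 56.6% and outside genes 53.3%. Of the regions with neither mark, 24.2% of those in gene bodies were higher in the second pair.

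Around gene starts of known strand, members were on average denser within 1 kb of the start than at 8 to 10 kb. Members higher in the second pair had on average 31.3 midpoints per 500 bp and 1000 starts within 1 kb, against 26.6 at 8 to 10 kb, a ratio of 1.18, and those higher in the first pair had 18.2 against 14.9, a ratio of 1.22. The ratio was 1.08 for regions with both marks, 0.714 for regions with H3K9me2 only and 0.851 for regions with neither mark. A rise in the 500 bp just downstream of the start was not particular to members. Regions with both marks had 14.2 there, those with H3K9me2 only 4.13 and those with neither mark 39.1. In the 500 bp just upstream they had 7.57, 2.14 and 25.5. In the 500 bp beyond that, members higher in the second pair had 26.0, below their mean at 8 to 10 kb. The share of members higher in the second pair was 63.2% within 1 kb and 64.0% at 8 to 10 kb, so the share differed little between these distances.

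**Figure D5:**
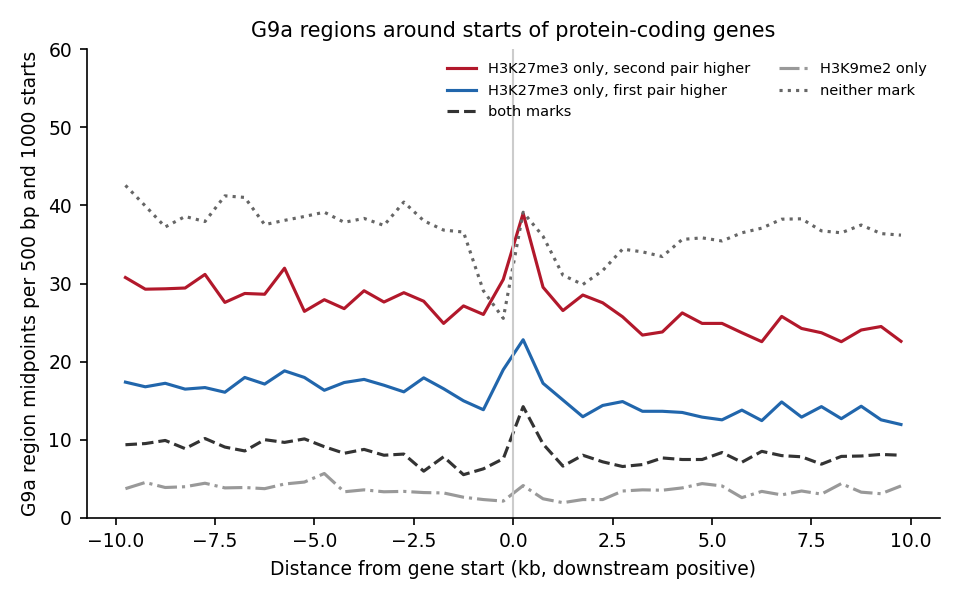
Midpoints of G9a regions per 500 bp and 1000 gene starts (y axis) by distance from the start of 20084 promoter entries (x axis, kb, downstream positive), for members higher in the second pair (red) and in the first pair (blue) and for the other overlap classes (grey and black). Both member lines peak just downstream of the start, at 39.0 for the second pair and 22.8 for the first pair, and the lines of the other classes also rise there.

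Promoters under members held fewer CG than promoters at large. The median number of CG in 300 bases was 9 for 1735 promoters overlapped by a member higher in the second pair and 10 for 797 overlapped by a member higher in the first pair, against 14 over all promoters. It was 6 for promoters with an H3K27me3 region and no G9a region, 3 for those under G9a regions with H3K9me2 only and 13 under G9a regions with neither mark. By number of CG, a member higher in the second pair overlapped 7.80% of promoters with 0 to 4 CG, 15.2% of those with 5 to 9, 10.4% with 10 to 14, 7.51% with 15 to 19, 5.92% with 20 to 24 and 6.81% with 25 and more. The fullest class was thus that of 5 to 9 CG.

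The number of CG also went with the order of the libraries inside the pairs. At the 451 members over promoters with 25 or more CG, the median G9a values were 87 and 254 in the second pair, against 90 and 145 in the first pair, and the pairs were apart at 39.5%. At the 642 members over promoters with 0 to 4 CG, the medians were 116 and 151 in the second pair, against 105.5 and 130 in the first pair, and the pairs were apart at 64.6%. Library 2 of both pairs exceeded library 1 of both pairs at 43.9% of the members over promoters with 25 or more CG, at 16.2% of those over promoters with 0 to 4 CG and at 16.8% of all members. Whether library 1 of the pairs shares a preparation is not given, and its part in the results was not tested.

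Members were frequent at developmental regulators, which are the textbook targets of Polycomb. The rule asks for a listed H3K27me3 region, so this frequency is no result about G9a. The shares over all genes given beside the counts are not limited to genes with such a region. Of all 20661 protein-coding genes, 29.1% had a member higher in the second pair within 2500 bp of an end and 25.1% had a member higher in the first pair there. Of 39 Hox genes, 38 had a member higher in the second pair and 34 a member higher in the first. The counts were 56 and 47 of 63 for other homeobox and paired box genes, and 60 and 52 of 72 for bHLH, Sox, Fox, Gata, T-box and zinc finger regulators. A gene with several members could count in both directions, as 33 of the 39 Hox genes did. Which count was larger rested on library 2 of the second pair: without it, a member higher in the second pair lay near 33 Hox genes and one higher in the first near 38, and the counts were 48 and 62 for other homeobox and paired box genes, 46 and 62 for the third list, and 5389 and 5856 over all genes. H3K27me3 was higher in the second pair as well at a member of 38 Hox genes, 56 homeobox and paired box genes and 58 regulators of the third list, where 25.1% of all genes had such a member. A member higher in the first pair for both antibodies lay near 2, 4 and 5 genes of these lists, against 10.6% of all genes.

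The libraries of a pair differed widely at these genes. Of 132 members near Hox genes, 31 (23.5%) were apart, against 58.4% of the 17809 members near all protein-coding genes. Library 2 of both pairs exceeded library 1 of both pairs at 81 (61.4%) of the members near Hox genes. Their G9a values summed to 12570 and 34697 in the second pair, against 12811 and 24448 in the first pair. Counting only members that were apart, 21 of 39 Hox genes had a member higher in the second pair and 17 in the first. The 29.1% and 25.1% of all genes count members apart or not, so they are no base for these 2 counts. The share apart was 35.5% of 265 members for other homeobox and paired box genes and 31.0% of 242 members for the third list. At Hoxb3 a member had 276 and 584 in the second pair, against 22 and 249 in the first pair, and it was apart. At Hoxa9 the values were 172 and 530 in the second pair, against 10 and 207 in the first pair, and the pairs overlapped. Of the lists that had members, the Hox genes had the lowest share apart.

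Barx1, Alx4, Neurog3, Myod1 and Sox8, regulators outside the Hox clusters, had members whose pairs were apart. At Barx1, a homeobox gene of tooth and stomach, a member had 976 and 876 in the second pair, against 227 and 368 in the first pair. At Alx4, a factor of skull and limb, the values were 813 and 804 in the second pair, against 123 and 357 in the first pair. At Neurog3, which specifies endocrine cells of the pancreas, they were 589 and 875 in the second pair, against 169 and 250 in the first pair. At Myod1, the regulator of skeletal muscle fate, they were 1038 and 856 in the second pair, against 311 and 404 in the first pair. At Sox8 they were 1114 and 1136 in the second pair, against 339 and 592 in the first pair. The log2 differences of these 5 lay between 1.27 and 1.80.

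Of 56 ligands, receptors and antagonists, 44 (78.6%) had a member higher in the second pair and 36 (64.3%) a member higher in the first. Over all genes the shares were 29.1% and 25.1%. Of the 173 members near the 56 genes, 57.8% were apart, near the 58.4% of members near all protein-coding genes. The Wnt ligand gene Wnt10b had the widest difference of the list's named members, with 399 and 569 in the second pair, against 44 and 72 in the first pair, a log2 difference of 3.04. Wnt7b had 1576 and 865 in the second pair, against 404 and 565 in the first pair, and Wnt8b had 913 and 294 in the second pair, against 110 and 184 in the first pair. Of 30 genes matched to the neuronal list, 24 had a member higher in the second pair and 19 a member higher in the first. These come to 80% and 63.3%, beside 29.1% and 25.1% of all genes. Without library 2 of the second pair, the counts were 16 and 22. The 30 genes include Ptpn11, a widely expressed phosphatase gene and no neuronal marker, which had a member higher in the first pair only. At Grin1, a subunit of the NMDA glutamate receptor, a member of 7000 bp had 2146 and 2036 in the second pair, against 939 and 765 in the first pair. At Th, tyrosine hydroxylase of catecholamine synthesis, the values were 1671 and 1218 in the second pair, against 317 and 738 in the first pair. Nefl, neurofilament light chain, had 767 and 1024 in the second pair, against 195 and 561 in the first pair.

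None of 22 sarcomere genes, among them Myh6, Ttn, Tnnt2 and Actn2, had a member near an end in either direction. Of 31 genes of energy metabolism, 6 had a member higher in the second pair and 3 a member higher in the first, and of 29 calcium handling genes and ion channels 6 and 4. These come to 19.4% and 9.68% of the energy genes and 20.7% and 13.8% of the calcium and channel genes, beside 29.1% and 25.1% of all genes. Without library 2 of the second pair, the calcium and channel counts were 5 and 6. Ryr2, Pln, Atp2a2 and Cacna1c had none. At Cacna1h, a T-type calcium channel gene, a member had 1533 and 681 in the second pair, against 382 and 522 in the first pair, and at Cacna1g, another, the values were 272 and 190 in the second pair, against 43 and 177 in the first pair. At Slc2a1, the basal glucose transporter gene, a member had 45 and 2 in the second pair, against 90 and 124 in the first pair. A gene without a member may carry G9a regions of another class or regions that were not listed, so its count says nothing of its level.

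Fetal and stress genes, which rise in hypertrophy, had 4 of 19 with a member higher in the second pair and 3 with a member higher in the first. These come to 21.1% and 15.8%, beside 29.1% and 25.1% of all genes. Nppa, Nppb, Myh7 and Ankrd1 had none. At Nppc, which encodes C-type natriuretic peptide, a member had 218 and 254 in the second pair, against 38 and 54 in the first pair, a log2 difference of 2.33. At Tnni1, slow skeletal troponin I, a member of 4450 bp had 1401 and 979 in the second pair, against 446 and 672 in the first pair. At Acta1, skeletal alpha-actin, the member with the smallest deposited p had 78 and 132 in the second pair, against 308 and 305 in the first pair, a log2 difference of −1.54, and its H3K27me3 region had a log2 difference of 0.58. Of the 4 members near Acta1, 2 were higher in the second pair and 2 in the first.

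Of 23 cardiac transcription factors, 8 had a member higher in the second pair and 8 a member higher in the first. Each count comes to 34.8%, beside 29.1% and 25.1% of all genes. Without library 2 of the second pair, the counts were 5 and 9. Gata4, Nkx2-5, Mef2c, Mef2a, Tbx20 and Hand2 were among the 14 with no member. Hand1, of the embryonic left ventricle, had a member with 661 and 373 in the second pair, against 324 and 147 in the first pair, Tbx5 one with 359 and 381 in the second pair, against 113 and 223 in the first pair, and Tbx3, of the conduction system, one with 266 and 513 in the second pair, against 232 and 135 in the first pair. At Tbx5 H3K27me3 had a log2 difference of −0.39. At Isl1, of cardiac progenitors, 2 members were listed, both higher in the first pair.

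Markers of other heart cells were counted beside the 29.1% and 25.1% of all genes. A member higher in the second pair lay near 14 of 17 endothelial markers, 16 of 20 leukocyte markers, 9 of 12 markers of smooth muscle and pericytes and 9 of 15 fibroblast markers, and a member higher in the first pair near 9, 13, 3 and 6 of them. The leukocyte markers C1qa, C1qb and C1qc share the member of 11950 bp. It had 4473 and 3101 in the second pair, against 1326 and 1453 in the first pair. Without library 2 of the second pair, the count for smooth muscle and pericytes in the first pair was 5. At Egfl7, an endothelial secreted factor, a member had 1487 and 679 in the second pair, against 389 and 448 in the first pair, and at Nos3, endothelial nitric oxide synthase, 1315 and 1100 in the second pair, against 689 and 609 in the first pair. At Pdgfrb, a receptor of pericytes and fibroblasts, a member of 7300 bp had 2222 and 1365 in the second pair, against 600 and 769 in the first pair. At Thy1, of fibroblasts and T cells, the values were 515 and 846 in the second pair, against 77 and 237 in the first pair. Summed over members near leukocyte markers, G9a came to 15116 and 11949 in the second pair, against 5860 and 8980 in the first pair, and over those near endothelial markers to 11327 and 10644 in the second pair, against 6026 and 7475 in the first pair. These sums were higher in both libraries of the second pair, and so were those over members near all protein-coding genes. The latter came to 3344397 and 3599297 in the second pair, against 1906984 and 2637029 in the first pair. The order is thus not particular to these markers, and the part of cell composition in the sums was not tested.

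Extracellular matrix genes had a member higher in the second pair near 18 of 27 and one higher in the first near 11. These come to 66.7% and 40.7%, beside 29.1% and 25.1% of all genes. Of the 60 members near matrix genes, 61.7% were apart, against 58.4% of members near all protein-coding genes. At Mmp9, a gelatinase, a member of 7100 bp had 1995 and 1839 in the second pair, against 445 and 964 in the first pair. At Eln, elastin, the values were 1524 and 1208 in the second pair, against 464 and 577 in the first pair, and at Col6a1, a chain of collagen VI, 1189 and 549 in the second pair, against 200 and 314 in the first pair. Col1a1 had a member with 852 and 693 in the second pair, against 427 and 373 in the first pair. All 4 were apart. At the fibroblast marker Mfap5, which encodes a microfibril protein, a member had 0 and 1 in the second pair, against 133 and 123 in the first pair.

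Genes of the enzymes themselves were also counted. Of 19 genes for H3K9 methylation enzymes and readers, 1 had a member higher in the second pair and 4 a member higher in the first. These come to 5.26% and 21.1%, beside 29.1% and 25.1% of all genes. Ehmt2 and Ehmt1 had no member. The member higher in the second pair, at Cdyl, did not remain without library 2 of that pair, and the count was 2 without library 1. At Setdb1, an H3K9 methyltransferase, a member had 61 and 126 in the second pair, against 223 and 265 in the first pair, and at Kdm1a, a demethylase, 21 and 81 in the second pair, against 118 and 104 in the first pair. Of 28 Polycomb and H3K27 demethylase genes, 6 had a member higher in the second pair and 8 a member higher in the first, which come to 21.4% and 28.6%, beside 29.1% and 25.1% of all genes. Ezh2, Eed and Suz12 had none. Without library 1 of the first pair or without library 2 of the second, the Polycomb count for the second pair was 4. At Cbx6, a chromobox subunit of Polycomb repressive complex 1, a member of 300 bp had 0 and 4 in the second pair, against 93 and 39 in the first pair, and at Pcgf1 one had 219 and 249 in the second pair, against 20 and 133 in the first pair. The overlapping gene Npcd shares the Cbx6 member.

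In 4 families of clustered genes, more genes had a member higher in the first pair than in the second. A member higher in the second pair lay near 103 of 1104 olfactory receptor genes and one higher in the first near 190, and the counts were 15 and 43 of 354 for vomeronasal receptor genes, 53 and 74 of 391 for Zfp zinc finger genes, and 9 and 26 of 57 for clustered protocadherins. The protocadherin counts were 14 and 23 without library 1 of the second pair, and 18 and 18, with no excess, without library 1 of the first. Beside 29.1% and 25.1% of all genes, the olfactory counts come to 9.33% and 17.2%. At Vmn2r88 a member had 5 and 3 in the second pair, against 147 and 165 in the first pair. At Zfp160 the values were 25 and 120 in the second pair, against 416 and 229 in the first pair. Neighbouring genes of a cluster share members, and reads of near-identical copies may be split between them. Keratin genes, which also lie in clusters, had 58 and 41 of 112, and at Krt81, a hair keratin gene, a member had 1442 and 919 in the second pair, against 120 and 476 in the first pair.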

How the data were processed

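G9a, H3K27me3 and H3K9me2 were profiled by ChIP-seq, and the NuGEN Ovation Ultralow V2 kit was used for libraries per the labels' protocols. The tools were BWA 0.7.10-r789 and SAMtools 1.1, with mouse build mm10 (GRCm38), per the submitters' processing notes. How regions were called, scaled and corrected for input, and the library depths, are not given in the labels or files. The authors deposited a table per antibody with 4 whole numbers and a −log10 p for each region. These deposited values, whose scaling is not stated, were used as they stand. A count test needs raw counts, which these values are not known to be, and was not run. The depth is unknown, so no intervals are given.

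Column 6 of each deposited table gives the higher pair and matched the 4 values in every line. Members were found with Python 3.11.15 and pandas 2.3.3 by an overlap of 1 bp or more, and the count was checked with bedtools 2.31.1 and on simulated regions. The log2 difference uses a pseudocount of 1, which understates differences of low regions. Genes came from the RefSeq table of GRCm38.p6, with 20661 protein-coding genes on chromosomes 1 to 19. Its strand is known, from the promoter table, for 16456 of them, so windows of 2500 bp lie around both gene ends. Exons, introns and UTRs were not told apart.

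Regions named are, among members whose windows reach at most 3 genes, the 8 with the smallest deposited p where both antibodies are higher in the same pair, for each pair, the 4 in each mixed combination, up to 3 genes of each of 22 lists, the 3 H3K27me3 regions with the most members and the 3 widest members. Predicted genes were passed over where another gene shares the region. Neurod2, Foxl2, Serpinb2, Isl1, Cdyl, Hmx1, Efcab6, Tlx1 and the genes named as having no member were chosen after their values were seen. The members, lists and rules were chosen with earlier results of these data known.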

Additional observations from a re-analysis of the deposited data

How the results depend on the processing

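No paired analysis was possible because the deposited values carry no replicate numbers or conditions and no test was made. The share of members higher in the second pair stayed above 50% under the alternatives planned, but setting single libraries of the pairs against each other gave 47.6% to 62.3%. With at least 50% of a member covered by H3K27me3, the antibodies pointed to the same pair at 66.3% and 9.75% lay near a gene end. With a deposited −log10 p of 4 or more in each table, 98381 members were left, 76.3% were apart, 69.7% pointed to the same pair and 9.62% lay near a gene end. The share near a gene end was 9.59% with a mean value of 50 or more, 9.92% for members at least 1000 bp from H3K9me2, 4.10% and 16.3% with windows of 1000 and 5000 bp, and 4.84% around known starts only, an alternative chosen after seeing the data. With each G9a library left out, the share pointing to the same pair ran from 62.0% to 64.1%, the share higher in the second pair from 51.1% to 57.8%, and the median log2 difference from 0.83 to 1.39 in members higher in the second pair and from −1.71 to −0.70 in those higher in the first. Scaling each library to its listed sum shifted the log2 of G9a regions by a median of −0.16, less than the smallest difference of any member, so it could not test their direction. Without library 2 of the second pair, the order of the 2 counts turned round for Hox, homeobox and paired box, bHLH and related, neuronal, and calcium and channel genes, and for all genes. Of 44 list counts, 22 moved by over 1.5 times when only members that were apart were counted. The pairs are not named by condition, each has 2 libraries, and unlisted regions were not analysed here.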

Other observations

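On the sex chromosomes, which belong to no comparison above, 169 of 803 listed G9a regions of chromosome X overlapped H3K27me3 only, and 101 of these were higher in the second pair. On chromosome Y the counts were 4 of 51, with 3 higher in the second pair.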
